A study of Mus musculus with 6 samples.

Results

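Cholesterol that enters a cell in lipoproteins is freed from its esters in the lysosome and leaves that organelle through NPC1, the protein lost in Niemann–Pick disease type C. The 9 genes described here encode NPC1 and proteins that act beside it in cholesterol hydrolysis, egress and onward transfer. They are Npc1, Npc2, Lipa, Stard3, Gramd1a, Gramd1b, Gramd1c, Lamp2 and Scarb2, chosen by their known roles and found by symbol among the 32285 genes of the count matrix. All 9 were present, and all 9 had enough counts to be tested in each of the 5 comparisons below. Single-nucleus RNA sequencing (snRNA-seq) of flash-frozen forebrain was performed on 3 WT and 3 Npc1-/- mice at postnatal day 16, without treatment. Per the study's methods, Npc1-/- mice carried the Npc1nih allele and were F1 hybrids of BALB/cJ and C57BL6/J heterozygotes, littermates served as WT, and both sexes were used. The nuclei of all 6 mice came in 1 matrix of counts of unique molecular identifiers (UMIs), in which a suffix from 1 to 6 on each barcode names the library. No key from suffix to mouse was given in the sources used here, so WT and Npc1-/- were not compared, and every level below is over both genotypes. The question these data can answer is in which forebrain cell types, and at which stage of the oligodendrocyte lineage, these genes were counted.

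Egress begins when lysosomal acid lipase, the product of Lipa, cleaves cholesteryl esters of endocytosed lipoproteins. NPC2, a soluble protein of the lysosomal lumen, passes the freed sterol to NPC1 in the limiting membrane. LAMP2 and SCARB2 (also called LIMP-2) are abundant proteins of that membrane, and SCARB2 also carries glucocerebrosidase to the lysosome. STARD3 tethers late endosomes to the endoplasmic reticulum and moves sterol between them, and the Aster proteins encoded by Gramd1a, Gramd1b and Gramd1c draw cholesterol from the plasma membrane into the endoplasmic reticulum. In the postnatal forebrain, oligodendrocytes need large amounts of cholesterol for myelin.

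The matrix held 497750379 UMIs in 75878 barcodes. Libraries held between 8217 and 16118 barcodes, with medians of 4469 to 5439 UMIs per nucleus, and 11 barcodes with a mitochondrial share of at least 10% were left out. Nuclei were assigned to 16 classes by sets of marker genes that include none of the 9 genes. The assignment took 46699 of 75867 nuclei (61.6%), between 53.6% and 64.4% per library. Of the others, 3541 matched a class but lay too close to a second one, and 25627 matched none. Class names below stand for nuclei that carried such markers, for example microglia-like nuclei. Markers left out of the assignment were at least 2-fold enriched in each class except for 2 of 3 in excitatory neurons (Tbr1 and Cux2, 1.54-fold and 1.52-fold) and 2 of 4 in inhibitory interneurons (Sst and Pvalb, 1.09-fold and 1.90-fold). Border macrophages (227 nuclei, 13 to 70 per library) and choroid plexus (303 nuclei, 28 to 67 per library) were the smallest classes. Mature oligodendrocytes numbered between 88 and 781 nuclei per library (674, 781, 139, 138, 405 and 88 for suffixes 1 to 6). OPCs numbered 741, 877, 740, 644, 606 and 382. Pooled levels of different classes thus weigh the libraries differently. The study reported fewer immature and mature oligodendrocytes in Npc1-/- than in WT samples, and normal proportions of its other cell populations. By that report, pooled levels of immature and mature oligodendrocytes weigh WT nuclei more than those of OPCs do. Without a key, by how much cannot be told. Of 75245 barcode sequences, 631 (0.839%) occurred in more than 1 library.

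Levels are in CPM, the UMIs of a gene per 1000000 UMIs of its class, with 95% exact Poisson intervals that cover counting error only. Orders of classes below are by CPM, and orders by UMIs per nucleus differed in part. All 6 neuronal transcripts of a fixed list (Rbfox3, Snap25, Syt1, Stmn2, Snhg11 and Celf4) were also counted outside the neurons. Their summed level was 8723 CPM in excitatory neurons (8122 to 9287 over the libraries), 5197 CPM in microglia (4850 to 5660), 3226 CPM in endothelial cells (1850 to 3973) and 2867 CPM in astrocytes (1927 to 3780). It was 3967, 3528 and 3368 CPM in oligodendrocyte progenitor cells (OPCs), immature and mature oligodendrocytes. The ratios below were taken again with those nuclei of each glial and vessel class at or below its median of neuronal RNA, and the values are given where a call changed or a ratio moved by over 1.5 times. Beyond that, the part of neuronal RNA in these levels was not tested.

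**Figure D1:**
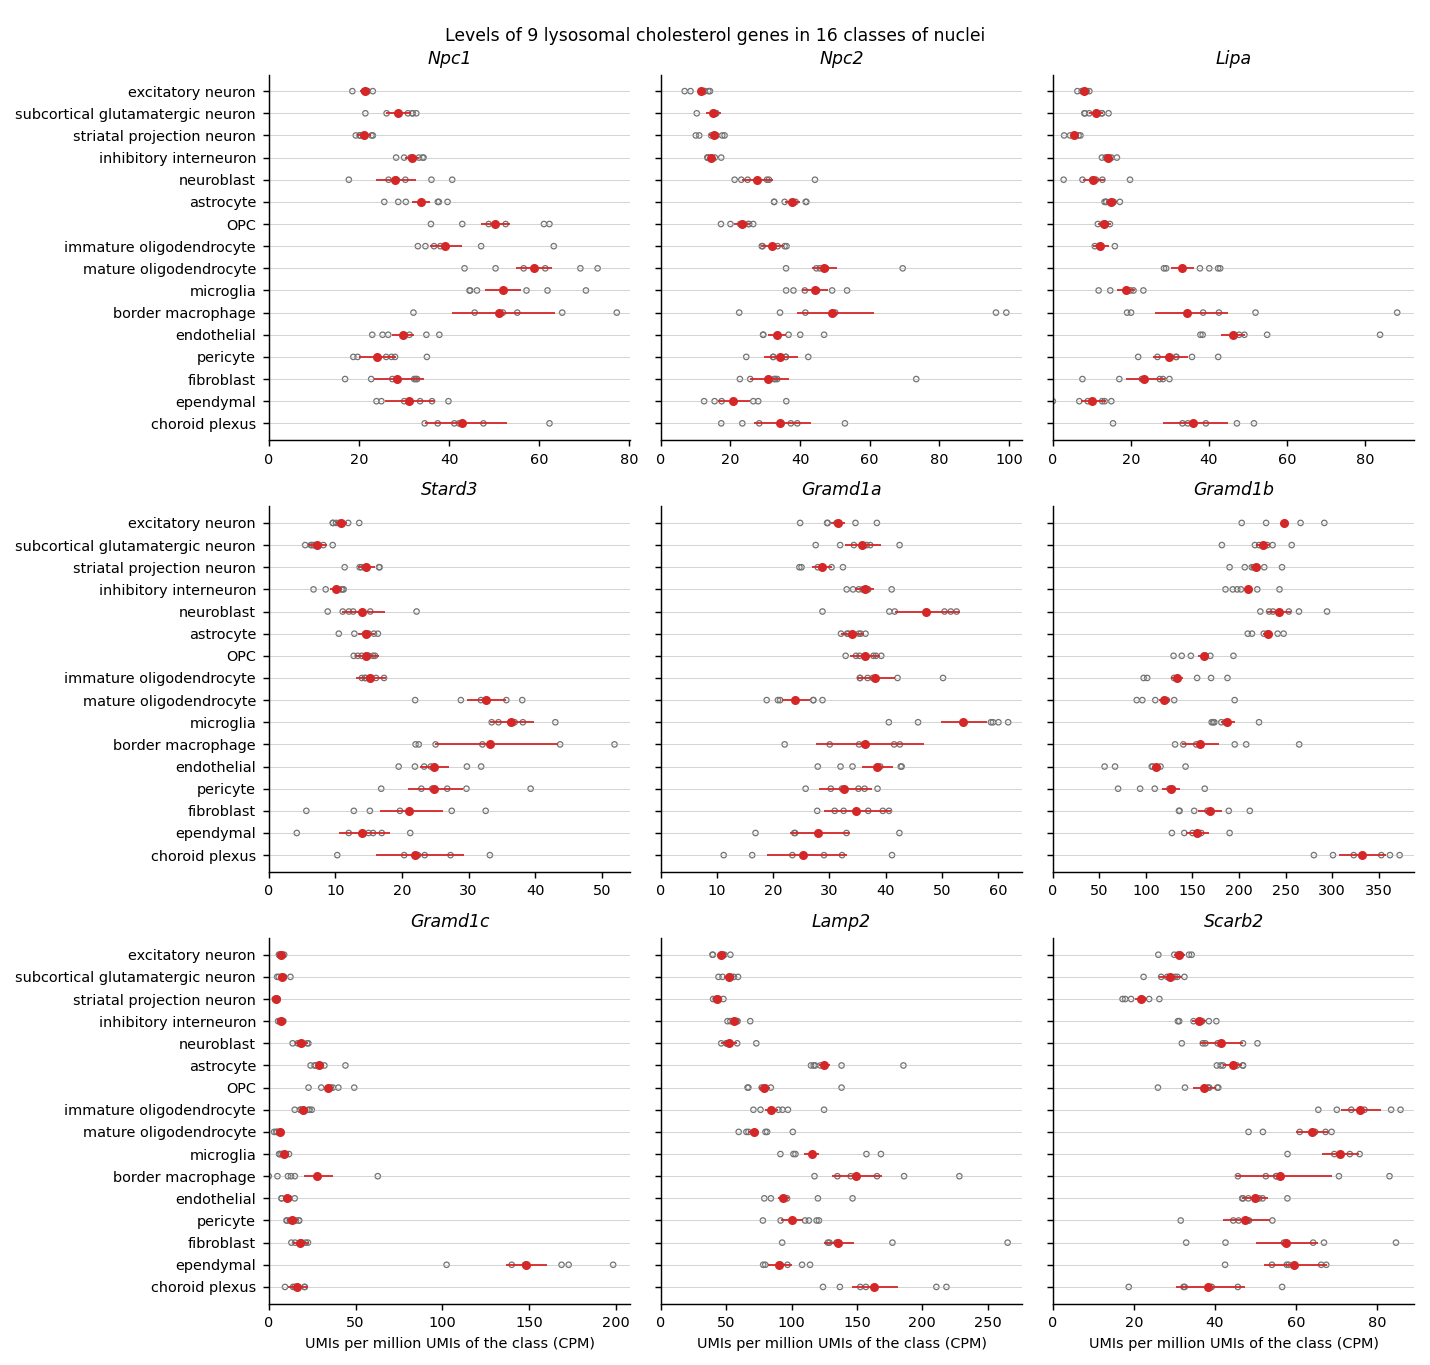
Levels of the 9 genes in 16 classes of nuclei, in CPM. Red points are all libraries together with 95% exact Poisson intervals and open circles are the 6 libraries. Gramd1c stands far to the right in ependymal nuclei (148 CPM), and Lipa is highest in endothelial nuclei (46.1 CPM).

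Npc1 was counted in every class, and its levels spanned a narrow range. Npc1 (ENSMUSG00000024413) is a protein-coding gene of 46.7 kb on the minus strand of chromosome 18 (12189692 to 12236400, GRCm38), and Rmc1 and Gm15956 overlap it on the other strand. Mature oligodendrocytes had the highest level of Npc1, at 58.7 CPM (54.9 to 62.8; lowest, median and highest library 43.4, 58.9 and 72.9). Microglia followed with 51.9 CPM (44.5, 51.7 and 70.3), border macrophages with 51.1 CPM (32.1, 53.5 and 77.2) and OPCs with 50.2 CPM (36.0, 50.7 and 62.3). These 4 classes overlapped across libraries, and mature oligodendrocytes ranked first in 1 of 6 libraries only. At the other end, striatal projection neurons had 21.0 CPM (19.3, 20.6 and 23.1) and excitatory neurons 21.3 CPM (18.5, 21.4 and 23.1). The highest level of Npc1 was 2.79-fold (2.53 to 3.08) above the lowest, and no adjacent pair in the order of 16 classes was separated by its interval and in all 6 libraries. Per 1000 nuclei, mature oligodendrocytes were also highest (394.6 UMIs of Npc1), but pericytes were lowest (126.3). Excitatory neurons had 215 and striatal projection neurons 169, above endothelial cells (144.7) and astrocytes (139.3). Neurons, 43.2% of the assigned nuclei, held 46.2% of the assigned Npc1 UMIs and 58.2% of UMIs of all genes. The oligodendrocyte lineage held 23.9% of Npc1 UMIs, against 15% of all UMIs. The assay reads the 3′ ends of transcripts, so these counts do not show whether a transcript from the Npc1nih allele encodes protein.

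In CPM, Npc2, the luminal partner of NPC1, was lowest in neurons other than neuroblasts. Npc2 (ENSMUSG00000021242) lies on the minus strand of chromosome 12 (84754562 to 84773152). Its level was 11.5 CPM in excitatory neurons (lowest, median and highest library 6.87, 12.6 and 14.1), 14.6 CPM in inhibitory interneurons, 15.03 CPM in subcortical glutamatergic neurons and 15.2 CPM in striatal projection neurons. Mature oligodendrocytes, with 46.9 CPM of Npc2 (36.0, 46.4 and 69.5), and microglia, with 44.3 CPM (36.0, 43.1 and 53.5), lay above these neurons in all libraries. Border macrophages had the highest pooled level of Npc2, 49.3 CPM, but it rested on 80 UMIs, ranged from 22.5 to 99.2 CPM over the libraries and was 38.1 CPM without library 3. Astrocytes (37.8 CPM, library range 32.6 to 41.8) and endothelial cells (33.4 CPM, 29.4 to 46.9) also lay above every neuron class other than neuroblasts (27.6 CPM, 21.2 to 44.3). Per 1000 nuclei the order differed. OPCs had 109.5 UMIs of Npc2 and excitatory neurons 116.4, while subcortical glutamatergic neurons had 183 and astrocytes 155.6.

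The balance of Npc2 to Npc1 does not depend on how a class is scaled, and it differed between classes. Of all Npc1 and Npc2 UMIs, Npc2 made up 31.4% in inhibitory interneurons (95% exact binomial interval 29.5 to 33.4; libraries 29.0 to 35.5), 31.7% in OPCs (29.3 to 34.2; libraries 24.8 to 36.9) and 35.1% in excitatory neurons (33.2 to 37.1; libraries 24.2 to 43.3). Its share was 52.8% in astrocytes (50.7 to 54.8; libraries 48.7 to 57.8), 52.9% in endothelial cells (50.1 to 55.7; libraries 45.7 to 67.1) and 58.8% in pericytes (53.3 to 64.1; libraries 41.2 to 65.7). The library ranges of astrocytes and of endothelial cells did not overlap those of excitatory neurons, OPCs or interneurons. Within the lineage, the share of Npc2 was 45.0% in immature oligodendrocytes (41.7 to 48.3; libraries 36.4 to 49.3). It was 44.4% in mature oligodendrocytes (41.9 to 46.9; libraries 38.5 to 61.5). The library ranges of immature oligodendrocytes and OPCs overlapped.

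**Figure D2:**
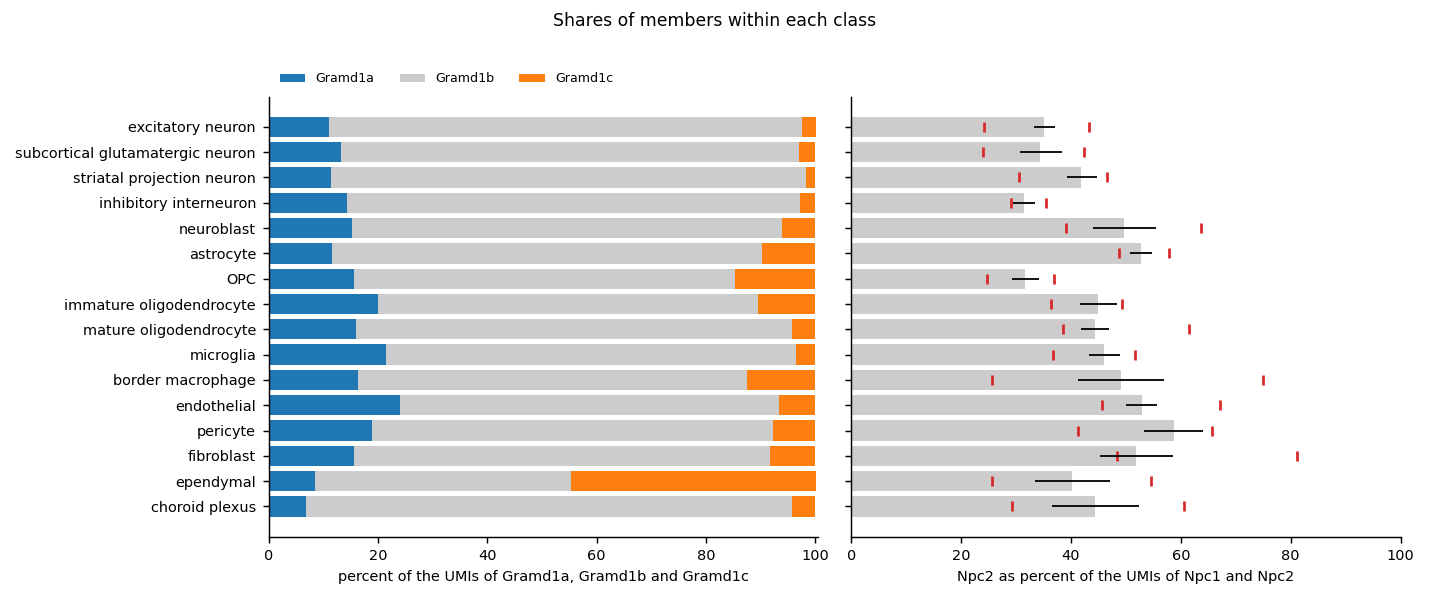
Left, the share of each Gramd1 gene in the UMIs of Gramd1a, Gramd1b and Gramd1c per class. Right, Npc2 as a percent of the UMIs of Npc1 and Npc2, with 95% exact binomial intervals (black) and the lowest and highest library (red ticks). Gramd1c takes 44.7% of the left bar in ependymal nuclei.

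Lipa, the gene of lysosomal acid lipase, was the member most concentrated in vessel cells. Lipa (ENSMUSG00000024781) lies on the minus strand of chromosome 19 (34492318 to 34527474). Endothelial cells had 46.1 CPM of Lipa (43.2 to 49.2; lowest, median and highest library 37.8, 48.4 and 83.8), and ranked first in 4 of 6 libraries. They lay above choroid plexus in all 6 libraries (35.8 CPM; 15.4, 36.9 and 51.5). Mature oligodendrocytes had 33.1 CPM (28.5, 38.9 and 42.9) and pericytes 29.8 CPM (21.9, 31.6 and 42.4). Every neuron class, together with astrocytes, OPCs, immature oligodendrocytes and ependymal cells, was at or below 15.01 CPM of Lipa. The lowest level was 5.39 CPM in striatal projection neurons (2.91, 5.55 and 7.09), so that endothelial cells were 8.56-fold (7.31 to 10.1) higher. Vessel and fibroblast classes held 25.3% of Lipa UMIs but 9.60% of all UMIs. In ependymal nuclei Lipa rested on 40 UMIs, with none in library 5, and a count of 0 allows up to 3 UMIs there.

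Stard3 was highest in phagocytes and myelinating cells. Stard3 (ENSMUSG00000018167), the only member on the plus strand, lies on chromosome 11 (98358368 to 98381112). Microglia had 36.4 CPM of Stard3 (33.2 to 39.9; lowest, median and highest library 33.5, 36.6 and 43.0), and mature oligodendrocytes 32.7 CPM (22.0, 32.2 and 38.1). Border macrophages had 33.3 CPM (22.1, 28.6 and 51.9), and microglia ranked first in 3 of 6 libraries. Endothelial cells and pericytes had 24.8 CPM each. OPCs, immature oligodendrocytes, striatal projection neurons and astrocytes lay together between 14.6 and 15.2 CPM. Subcortical glutamatergic neurons were lowest, with 7.20 CPM of Stard3 (5.47, 6.65 and 9.61), below inhibitory interneurons (10.1 CPM) in all 6 libraries.

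The 3 Aster genes differed from each other in where they were counted. Gramd1a (ENSMUSG00000001248; chromosome 7, 31130127 to 31155896, minus strand) varied least, with 2.25-fold (1.98 to 2.56) between microglia at 53.9 CPM (lowest, median and highest library 40.6, 58.9 and 61.8) and mature oligodendrocytes at 24.0 CPM (18.9, 24.2 and 28.8). G630030J09Rik and Gm10640 overlap it on the other strand. Neuroblasts, the young neurons of the postnatal forebrain, followed with 47.2 CPM of Gramd1a (28.8, 46.1 and 52.6), while the other classes lay between 25.3 and 38.5 CPM. No adjacent pair of classes in the order for Gramd1a was separated in all libraries.

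Gramd1b was highest in choroid plexus and high in neurons and astrocytes. Gramd1b (ENSMUSG00000040111) spans 238.2 kb of chromosome 9 on the minus strand (40293233 to 40531383). Gm48129 and Gm48127 lie within its span on the same strand, and 1700110K17Rik and Gm17540 on the other. Choroid plexus had 332 CPM of Gramd1b (308 to 357; lowest, median and highest library 280, 338 and 373), the highest of all classes in 6 of 6 libraries. Excitatory neurons had 249 CPM (203, 249 and 292), neuroblasts 243 CPM (223, 245 and 295) and astrocytes 231 CPM (209, 229 and 248). Endothelial cells had the lowest pooled level, 111 CPM (55.6, 107 and 143), next to 120 CPM in mature oligodendrocytes and 127 CPM in pericytes. The library ranges of endothelial cells and of excitatory neurons did not overlap for Gramd1b.

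Gramd1c was highest in ependymal cells, the ciliated lining of the ventricles. Gramd1c (ENSMUSG00000036292) lies on the minus strand of chromosome 16 (43980350 to 44063345). Its level was 148 CPM in ependymal nuclei (136 to 161; lowest, median and highest library 102, 158 and 198), against 34.2 CPM in OPCs (22.9, 36.4 and 49.2) and 29.0 CPM in astrocytes (24.1, 28.5 and 44.2). Each library placed ependymal nuclei first. Striatal projection neurons were lowest, with 4.30 CPM (3.44, 4.25 and 5.14), a difference of 34.4-fold (28.7 to 41.5). Ependymal and choroid plexus nuclei made up 2.03% of the assigned nuclei and held 14.6% of Gramd1c UMIs. The 27.7 CPM of Gramd1c in border macrophages came mainly from library 2, which had 62.8 CPM where the other 5 had between 0 and 15.02, and was 10.9 CPM without library 2.

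Within the Aster family, these differences set the composition of each class. Gramd1c made up 44.7% of the 3 genes' UMIs in ependymal nuclei (42.0 to 47.4; libraries 30.6 to 53.2) and 14.7% in OPCs (13.7 to 15.8; libraries 8.98 to 22.6), but 2.45% in excitatory neurons (2.25 to 2.67; libraries 2.04 to 3.38). Gramd1b made up 86.6% in excitatory neurons, 88.9% in choroid plexus, 69.3% in endothelial cells and 46.9% in ependymal nuclei. The share of Gramd1a was largest in endothelial cells (24.0%, libraries 21.8 to 35.1) and microglia (21.5%, libraries 18.0 to 25.7), and 11% in excitatory neurons (libraries 9.44 to 12.4). These shares do not compare the genes with each other, because UMIs of genes of different length and structure are not on 1 scale. Per kb of exon, the assigned nuclei had 20.2 CPM of Gramd1b, 6.55 of Gramd1a and 2.78 of Gramd1c, whereas per kb of gene span the values were 0.855, 1.33 and 0.168.

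Promoter windows from RefSeq (GRCm38.p6; 250 bases before to 50 after each start) were found for 7 of the 9 members, with 9 windows in all, and not for Npc1 and Gramd1b. They were searched on both strands for the E-box CACGTG and for TCACGTGA, its longer palindromic form known from lysosomal genes as the CLEAR core, which contains the E-box. Neither was in a window of Npc2, Lipa, Stard3, Gramd1a, Lamp2 or Scarb2. Of 3 windows of Gramd1c, 2 held an E-box, and they are printed because they were the only ones of the 9 to do so. All 3 windows lie inside the span of Gramd1c given above. The windows of Gramd1a and Scarb2 likewise lie inside the spans of those genes. In the first and second sequence the E-box began at position -78 and -178 from the start, and capitals mark it.
Gramd1c, chr16:44027998-44028043, minus strand: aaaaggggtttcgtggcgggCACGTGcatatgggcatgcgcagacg
Gramd1c, chr16:44016589-44016634, minus strand: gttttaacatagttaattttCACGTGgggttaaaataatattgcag
Among all 32851 windows, 7.15% held the E-box and 0.974% the longer form. The sterol response element core CACCCCAC, present in 2.87% of all windows, was in none of the 9. The CCAAT box (letters CCAAT, 37.4% of all windows) and the GC box (GGGCGG, 35.7%) were each in 6 of the 9. The match is one of letters, and binding was not measured here.

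Lamp2 and Scarb2, both encoding membrane proteins of the lysosome, had different leading classes. Lamp2 (ENSMUSG00000016534; chromosome X, 38401357 to 38456454, minus strand) had 163 CPM in choroid plexus (146 to 182; lowest, median and highest library 124, 155 and 219), 149 CPM in border macrophages (118, 155 and 228), 136 CPM in fibroblasts (92.9, 132 and 265) and 125 CPM in astrocytes (115, 120 and 186). These ranges overlapped, and choroid plexus ranked first in 1 of 6 libraries. All neuron classes lay between 43.3 and 56.3 CPM of Lamp2, below astrocytes and microglia in all libraries. Scarb2 (ENSMUSG00000029426; chromosome 5, 92441314 to 92506833, minus strand) was highest in immature oligodendrocytes, with 75.9 CPM (71.2 to 80.9; 65.5, 75.3 and 85.8), which ranked first in 5 of 6 libraries. Microglia had 70.9 CPM of Scarb2 (57.9, 71.1 and 75.7) and mature oligodendrocytes 63.9 CPM (48.3, 62.8 and 68.8). Striatal projection neurons were lowest for Scarb2, as for Npc1, Lipa, Gramd1c and Lamp2, with 21.7 CPM (17.2, 20.8 and 26.3).

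Ratios to excitatory neurons were then taken for microglia, astrocytes and endothelial cells. A gene was called where the pooled ratio of CPM was at least 1.5-fold and all 6 libraries lay on the same side of 1, and intervals of ratios are exact and from the binomial distribution of the counts. No p-value was computed, because the libraries could not be assigned to mice or genotypes and are not treated as replicates of a group. The 3 comparisons share the excitatory neurons. All genes tested, those with at least 100 UMIs in the pair of classes, had median log2 ratios of 0.43, 0.47 and 0.51 in microglia, astrocytes and endothelial cells, so the median gene was also higher in CPM in these classes, and the members are given against these medians. Shares of all genes called below are over genes chosen by that limit, which were not matched to the members in UMIs.

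In microglia, 7 of 9 members were called higher and none lower, where 36.4% of all 15659 genes tested were called higher and 7.80% lower. Npc2 was 3.84-fold (3.45 to 4.28) higher in microglia, and Stard3 3.34-fold (2.97 to 3.75). Lamp2 was 2.52-fold, Npc1 2.44-fold, Lipa 2.31-fold, Scarb2 2.27-fold and Gramd1a 1.71-fold higher, each in 6 of 6 libraries. The call of Lipa was lost when nuclei were thinned to 2000 UMIs (log2 ratio 1.28). The members had a median log2 ratio of 1.21, next to 0.43 for all genes. Gramd1b had 0.754 times the level of excitatory neurons and lay below them in 6 of 6 libraries without reaching the fold. It was called lower with nuclei assigned by summed marker UMIs (log2 ratio -0.62) and without the deepest 10% of nuclei (-0.61). Gramd1c, with 8.73 and 7.04 CPM in microglia and excitatory neurons, did not pass (log2 ratio 0.31, 0.002 to 0.61; above in 5 of 6 libraries).

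Microglia carried the most neuronal RNA of the glial classes (59.6% of the level of the neuronal list in excitatory neurons). In microglia of low neuronal RNA the list was at 2451 CPM, the log2 ratio of Npc2 was 2.47 instead of 1.94, and that of Lamp2 1.92 instead of 1.33. Gramd1c (0.76) and Gramd1b (-0.74, lower) passed the limits there. The share of all genes called was not computed at that setting. Microglia had a median of 2718.5 UMIs per nucleus and excitatory neurons 8937, and when UMIs were divided by nuclei instead of by all UMIs, Npc2 was the only member called higher (log2 ratio 0.69), Stard3 had 0.49, and Npc1, Lamp2, Lipa and Scarb2 lay between -0.07 and 0.08. Gramd1a had -0.48, and Gramd1b and Gramd1c were called lower. CPM gives the part that a gene takes of a class's transcripts, not its transcripts per nucleus. Median-of-ratios scaling differed from scaling by total UMIs by a log2 factor of -0.42 in excitatory neurons and of 0.07, 0.05 and 0.11 in microglia, astrocytes and endothelial cells, so it lowered all these ratios. Under it 6 members were called higher in microglia, without Gramd1a (0.27), and Gramd1b was called lower (-0.91). Nor was the share of all genes called computed under this scaling or per nucleus, here or in the comparisons below.

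**Figure D3:**
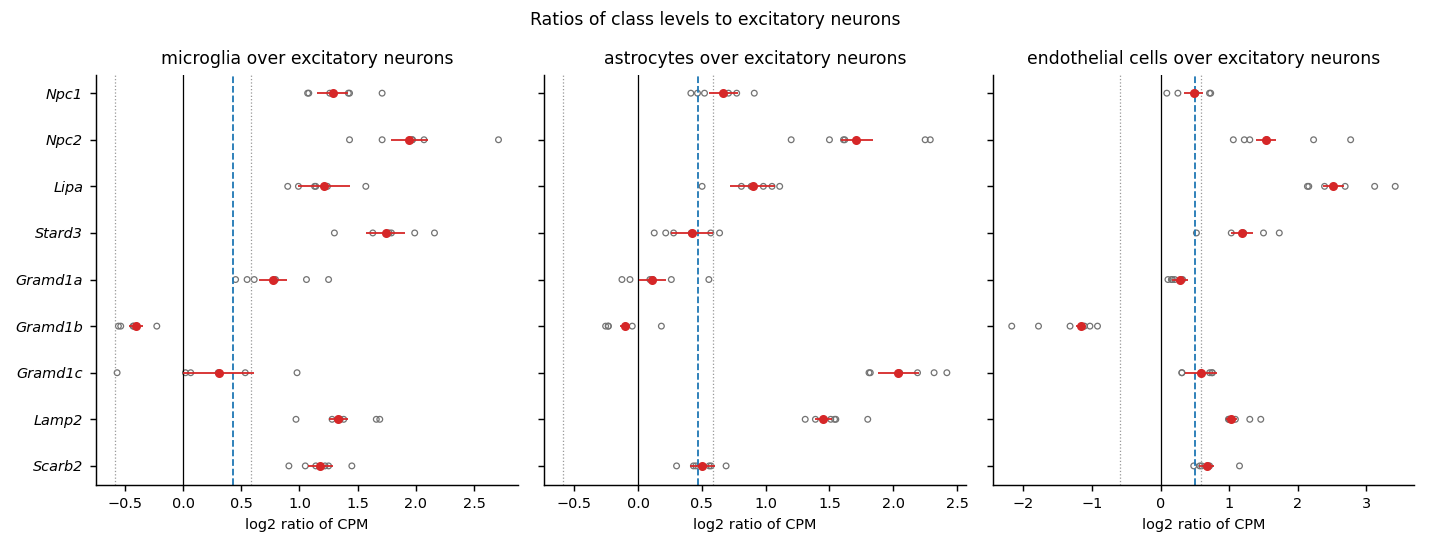
Log2 ratios of CPM to excitatory neurons for the 9 genes. Red points are all libraries with 95% exact intervals, open circles the 6 libraries, dotted lines the 1.5-fold limits and the blue dashed line the median of all genes tested (0.43, 0.47 and 0.51). Npc2 lies to the right of that line in all 3 panels and Gramd1b to its left.

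In astrocytes, 5 members were called higher and none lower, against 41.7% of 16356 genes called higher and 14.3% lower. Gramd1c led with 4.11-fold (log2 ratio 2.04, 1.88 to 2.20), followed by Npc2 with 3.28-fold (1.71, 1.59 to 1.84) and Lamp2 with 2.74-fold (1.45, 1.39 to 1.52). Lipa (1.86-fold) and Npc1 (1.59-fold) were called too, but Npc1 at a log2 ratio of 0.67 lay close to the median of all genes, and its call was lost with nuclei assigned by summed marker UMIs (0.58). A count of 5 of 9 lies near the share of all genes, and the members' median log2 ratio was 0.67, next to 0.47. Stard3, Gramd1a, Gramd1b and Scarb2 did not pass, with log2 ratios of 0.43, 0.11, -0.11 and 0.51. When classes were scaled by median of ratios, the called members were Npc2, Gramd1c and Lamp2, and per nucleus Gramd1c alone was called higher (0.75), with Npc2 at 0.42 and Lipa at -0.40, while Npc1 (-0.63), Stard3, Gramd1a, Gramd1b and Scarb2 were called lower.

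In endothelial cells, 6 members were called higher and 1 lower, against 43.2% of 16056 genes called higher and 15.4% lower. Lipa showed the largest ratio of any member in the 3 comparisons, 5.73-fold (log2 ratio 2.52, 2.37 to 2.67; lowest, median and highest library 2.14, 2.54 and 3.42). Npc2 was 2.90-fold, Stard3 2.27-fold, Lamp2 2.05-fold, Scarb2 1.6-fold and Gramd1c 1.51-fold higher. Gramd1b was the member called lower, at 0.446 times the level of excitatory neurons (log2 ratio -1.16, -1.23 to -1.10; -2.17, -1.22 and -0.92 over libraries). Npc1 and Gramd1a did not pass, with log2 ratios of 0.49 and 0.29, but Npc1 was called higher in nuclei thinned to 2000 UMIs (0.62). In endothelial nuclei of low neuronal RNA the log2 ratio of Gramd1b was -1.72, and Npc1 was called higher as well (0.59). Gramd1c, at 0.66, was not called there because not all 6 libraries lay on that side. The members had a median log2 ratio of 0.67, next to 0.51 for all genes. The call of Gramd1c was lost without library 3, 4 or 5, with the looser (0.58) and stricter (0.39) assignment, with assignment by summed marker UMIs (0.57), with thinning (0.53) and without the deepest 10% of nuclei (0.62). Under median-of-ratios scaling Npc2, Lipa and Gramd1b were the called members. Per nucleus, Lipa was still called higher (1.46), with Gramd1a (-0.77) and Gramd1b (-2.22) lower.

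Other genes of lysosomal sterol handling were counted by the same rule. Of 10 genes of lysosomal sterol supply and neighbours, 7 were called higher in microglia, 6 in astrocytes and 6 in endothelial cells, and none lower, next to 36.4%, 41.7% and 43.2% of all genes called higher. Their median log2 ratios were 0.82, 1.13 and 0.84, next to 0.43, 0.47 and 0.51 for all genes. Cd63, Lamp1, Psap and Smpd1, which encode 2 lysosomal membrane proteins, the saposin precursor and acid sphingomyelinase, were higher in all 3. Rab7, a regulator of late endosomes, was higher in microglia (1.75-fold) and endothelial cells (1.69-fold), Slc38a9 in microglia (1.58-fold) and Mcoln1 in endothelial cells (1.9-fold). Lrp1, a lipoprotein receptor, was higher in microglia (2.39-fold) and astrocytes (2.08-fold). Among 12 genes of sterol transfer at organelle contacts, 1 was called higher and 2 lower in microglia and in astrocytes, and 2 higher and 3 lower in endothelial cells, next to 7.80%, 14.3% and 15.4% of all genes called lower. Their median log2 ratios were 0.27, -0.18 and 0.19. Osbpl6 and Syt7 were called lower in all 3 classes, and Vapa, which encodes a protein of the endoplasmic reticulum that STARD3 binds, was higher in microglia (1.68-fold) and endothelial cells (1.65-fold). Osbpl9 was higher in astrocytes (1.75-fold) and endothelial cells (1.66-fold), and Osbpl5 lower in endothelial cells (0.62 times). Soat1, the enzyme that makes cholesteryl esters for storage, was 7.85-fold higher in astrocytes, 3.38-fold in microglia and 1.9-fold in endothelial cells, where Lipe, the gene of hormone-sensitive lipase, was 1.92-fold higher. Of 4 ester genes outside the lysosome, Soat2 had too few counts to be tested.

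Along the oligodendrocyte lineage, Scarb2 was called higher than in OPCs from the immature stage on, and Npc2, Lipa and Stard3 at the mature stage only. From OPCs to immature oligodendrocytes, which no longer divide and have not yet formed myelin, 1 member was called higher and none lower, against 6.27% and 7.92% of 13605 genes. Scarb2 went from 37.3 CPM in OPCs (lowest, median and highest library 25.9, 38.5 and 40.8) to 75.9 CPM in immature oligodendrocytes (65.5, 75.3 and 85.8), 2.03-fold (log2 ratio 1.02, 0.88 to 1.17). The library ranges did not overlap. Npc2 was higher in 6 of 6 libraries (23.3 to 32.0 CPM) below the fold, and Lipa, Stard3, Gramd1a and Lamp2 had intervals that included no difference, between -0.40 and 0.33 on the log2 scale.

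Gramd1c, Npc1 and Gramd1b were counted less in immature oligodendrocytes than in OPCs in most libraries. Gramd1c had 19.9 and 34.2 CPM, at 0.583 times the level of OPCs, lower in 5 of 6 libraries. Its log2 ratio was -0.78, and it was not called, but it was called lower without library 4, where it had 23.5 and 22.9 CPM. With all 6 libraries it was also called lower under the looser assignment (log2 ratio -0.79), with thinning (-0.67) and without the deepest 10% of nuclei (-0.77). Npc1 had 39.2 and 50.2 CPM, lower in 4 of 6 libraries and higher in libraries 3 and 6. Gramd1b had 133 and 162 CPM (log2 ratio -0.28, -0.37 to -0.19), lower in 4 of 6 libraries, and was not called there or, at -0.61, in nuclei of low neuronal RNA. In nuclei of low neuronal RNA, Gramd1c (log2 ratio -1.01) and Npc1 (-0.63) were called lower beside the call of Scarb2, at 1.44.

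**Figure D4:**
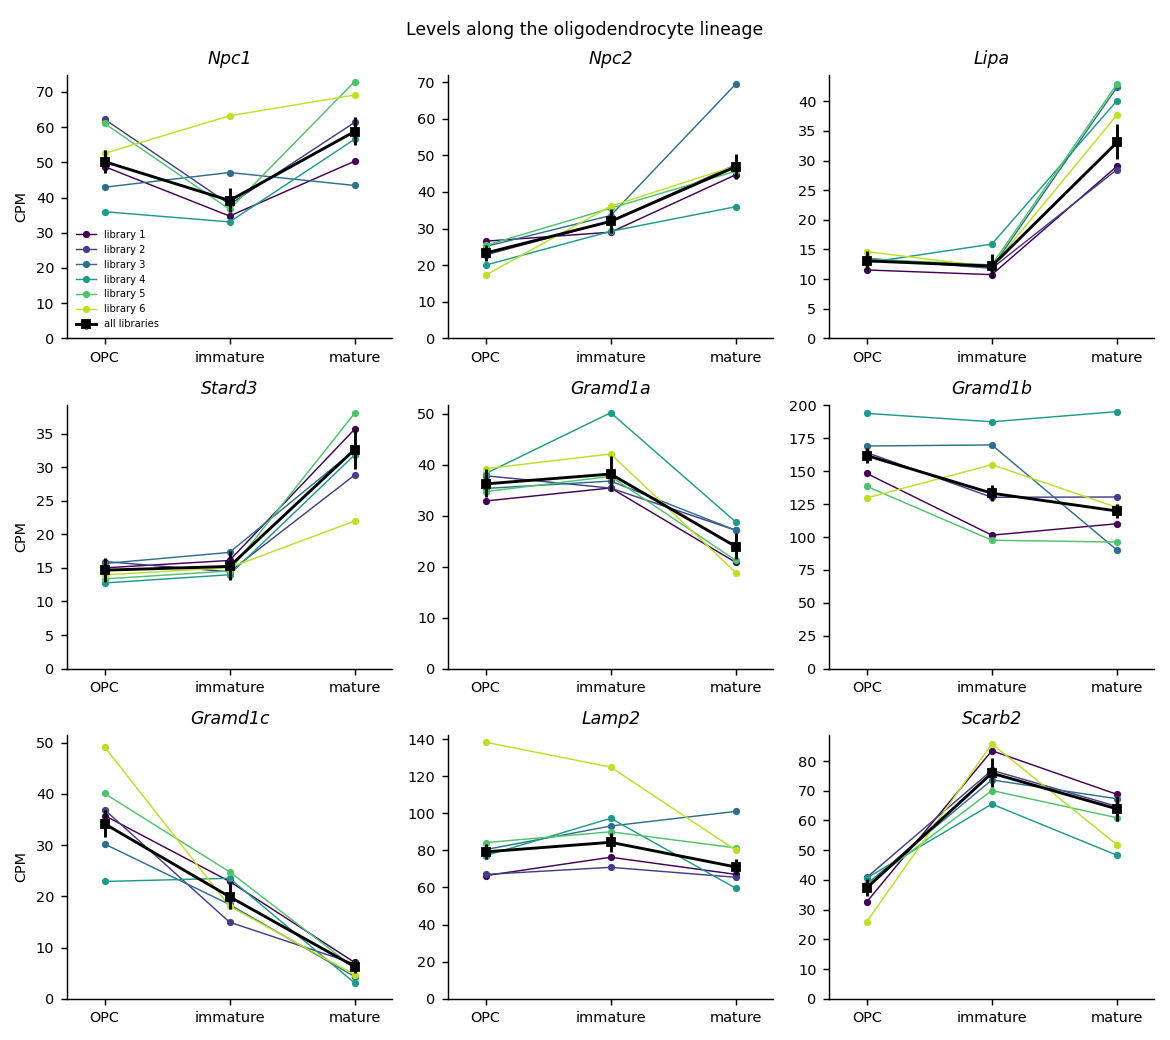
CPM of the 9 genes in OPCs, immature and mature oligodendrocytes. Colored lines are the 6 libraries and the black line is all libraries with 95% exact Poisson intervals. Lipa and Stard3 lie together at the first and second stage and higher at the third, Scarb2 peaks at the second, and Gramd1c falls to 6.29 CPM.

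From OPCs to mature oligodendrocytes, 4 members were called higher and 2 lower, against 9.42% and 13.4% of 13783 genes. Lipa was 2.53-fold higher (13.1 to 33.1 CPM, log2 ratio 1.34, 1.12 to 1.57), Stard3 2.23-fold (14.7 to 32.7 CPM, 1.15, 0.94 to 1.37) and Npc2 2.01-fold (23.3 to 46.9 CPM, 1.01, 0.84 to 1.18). For each of these 3 genes the library ranges of OPCs and mature oligodendrocytes were apart. How many of all genes had library ranges apart at either stage was not computed. Scarb2 was 1.71-fold higher (log2 ratio 0.78, 0.63 to 0.92), with 6 of 6 libraries below its level in immature oligodendrocytes (0.842 times that level). The members had a median log2 ratio of 0.23 and all genes tested one of -0.14.

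Of the 3 Aster genes, Gramd1c and Gramd1a were called lower and Gramd1b was not called. Gramd1c was at 0.184 times its level in OPCs in mature oligodendrocytes (34.2 to 6.29 CPM, log2 ratio -2.44, -2.77 to -2.13; lowest, median and highest library -3.38, -2.77 and -2.33). Its log2 ratio was -3.29 in nuclei of low neuronal RNA and -3.04 in nuclei thinned to 2000 UMIs. Gramd1a was at 0.660 times (36.3 to 24.0 CPM), lower in 6 of 6 libraries, and its call was lost without library 1, 5 or 6, with a looser (log2 ratio -0.52) or stricter (-0.54) assignment of nuclei, with thinning (-0.54), under median-of-ratios scaling (-0.45) and per nucleus. Gramd1b had 162 CPM in OPCs and 120 CPM in mature oligodendrocytes, lower in 5 of 6 libraries. In nuclei of low neuronal RNA its log2 ratio was -0.99 instead of -0.44, and it was called lower, as it was with nuclei assigned by summed marker UMIs (-0.75), whereas Scarb2, at 1.22, was not called there because not all 6 libraries lay on that side. Npc1 and Lamp2 were not called (log2 ratios 0.23, above in 5 of 6 libraries, and -0.16, above in 2 of 6).

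The change in Lipa and Stard3 fell between the immature and the mature stage. Mature over immature oligodendrocytes, Lipa was 2.71-fold (log2 ratio 1.44, 1.17 to 1.71) and Stard3 2.14-fold (1.10, 0.86 to 1.35) higher, each in 6 of 6 libraries. Gramd1c (0.316 times) and Gramd1a (0.627 times) were lower in 6 of 6. The share of all genes that differed between these 2 stages was not computed. Npc1 had a pooled ratio of 1.5-fold (39.2 to 58.7 CPM) and was higher in 5 of 6 libraries (log2 ratios -0.12 to 0.99), with library 3 on the other side. Median UMIs per nucleus were 3712.5, 4156 and 5231 at the 3 stages. Per nucleus, Npc2, Lipa, Stard3 and Scarb2 were called higher in mature oligodendrocytes than in OPCs, as was Npc1 (log2 ratio 0.74), and Gramd1c was called lower (-1.93), while Gramd1a (-0.08) and Gramd1b (0.08) were not called. From OPCs to immature oligodendrocytes, Npc2 (0.61) and Scarb2 (1.17) were called higher per nucleus and Gramd1c lower (-0.63). In mature oligodendrocytes the log2 ratio of Scarb2 to OPCs was 1.29 per nucleus, so Scarb2 did not peak at the immature stage per nucleus. It did in CPM and under median-of-ratios scaling (1.07 in immature and 0.925 in mature oligodendrocytes).

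Of the 10 supply genes, 1 was called higher and 1 lower than in OPCs at each stage, next to 6.27% and 7.92% of all genes in immature and 9.42% and 13.4% in mature oligodendrocytes. Lrp1 was the lower one, at 0.533 times the OPC level in immature and 0.318 times in mature oligodendrocytes. Among the 12 transfer genes, Osbpl1a was higher at both stages (1.62-fold and 1.92-fold) and Anxa6 lower at both (0.631 and 0.541 times), with Osbpl6 lower in mature oligodendrocytes (0.572 times). Nceh1, a hydrolase of cholesteryl esters outside the lysosome, was 1.51-fold higher in mature oligodendrocytes.

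Related classes also differed in single members, and for these pairs the share of all genes that differed was not computed. Ependymal cells had 5.11-fold (log2 ratio 2.35, 2.20 to 2.50) more Gramd1c than astrocytes in 6 of 6 libraries, and less Npc2 (0.549 times, 6 of 6 libraries) and Lipa (0.667 times, below in 6 of 6 with no UMI in library 5). Choroid plexus, which like the ependyma lines the ventricles, had 0.110 times the Gramd1c of ependymal cells (log2 ratio -3.19, -3.73 to -2.69) but 3.58-fold more Lipa, 2.14-fold more Gramd1b and 1.8-fold more Lamp2, and 0.642 times the Scarb2. Endothelial cells differed from pericytes in Lipa (1.55-fold, 6 of 6 libraries), while Stard3 (0.999 times) and Npc2 (0.977 times) had intervals that included no difference. Neuroblasts had 2.74-fold more Gramd1c and 1.89-fold more Npc2 than inhibitory interneurons, each in 6 of 6 libraries. Border macrophages and microglia had no member on the same side in all libraries. With 13 to 70 border macrophage nuclei per library, this does not show that the classes are alike. Pooled Lipa was 34.5 CPM (26.06 to 44.8, from 56 UMIs) in border macrophages and 18.63 CPM (16.34 to 21.15, from 239 UMIs) in microglia. For Npc1 the log2 ratio of border macrophages to microglia was -0.02 (-0.37 to 0.31), or from 0.774 times to 1.24-fold by counting error alone. Single libraries lay further apart on both sides. Border macrophages and microglia had 32.1 and 57.2 CPM of Npc1 in library 3, and 77.2 and 44.5 CPM in library 4.

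Across the 96 class-by-library values, members varied together to different degrees. The correlations below are Pearson r of log2(CPM + 5), given as a description over points that share libraries and classes. Npc2 had r of 0.67 with Lamp2 and with Scarb2, 0.60 with Stard3 and 0.59 with Lipa, while Npc1 reached at most 0.48, with Stard3. Gramd1b ran against Scarb2 (r of -0.41), Lipa (-0.33), Stard3 (-0.33) and Npc2 (-0.30). Gramd1a had values between -0.13 and 0.26 with all others.

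Among 13675 other genes with at least 1000 UMIs, those most like each member were found by the same r. They included E330020D12Rik (0.733) and Ppp1r21 (0.660) for Npc1, and were Elf2 (0.822), Wnk1 (0.804) and Magt1 (0.791) for Npc2. For Lipa they were Zdhhc20 (0.820), Cd2ap (0.789) and Hpcal1 (0.788), and for Stard3 Picalm (0.810), Mbnl1 (0.748) and Unc93b1 (0.748). Golm1 (0.591), Bach2 (0.584) and Pde3b (0.581) were closest to Gramd1a, Ahcyl2 (0.857), Lncpint (0.834) and Atp2b2 (0.814) to Gramd1b, and Cfap100 (0.839), Gm16499 (0.826) and Morn3 (0.825) to Gramd1c. Lamp2 was closest to Itprid2 (0.863), Abca1 (0.857), which encodes a cholesterol exporter, and Sat1 (0.854), and Scarb2 to Foxn3 (0.786), Map4k4 (0.785) and Ankrd44 (0.782). The pattern of Gramd1a thus had the weakest matches.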

How the data were processed

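UMI counts, whole numbers for each gene in each barcode, were used as deposited by the authors in a single matrix of all libraries, with no normalization. Its header names Cell Ranger 6.0.0. The submitters' processing notes name Cell Ranger 2.1.1 and mm10, and the study's methods describe STARsolo on GRCm38 with removal of empty droplets and multiplets, and imputed log values, which this matrix does not hold. Whether intronic reads were counted, the annotation release, multiplet removal from this matrix and any equalizing of depth are not stated in the sources used here. No doublet caller was run here, and nuclei with markers of 2 classes were left out.

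Members and lists were chosen with earlier results of these data known. Nuclei with a mitochondrial share under 10% were scored on 100 markers (log of counts per 10000 plus 1, standardized, averaged per class). A class needed at least 3 of its markers, a score of at least 0.5 and a lead of 0.25, limits set after seeing the data, and 4065 nuclei (8.70% of those assigned) lay within 0.1 of a limit. Counts were summed per class and library and scaled to CPM. Libraries are 1 value each and no test across them was made. Named are all members, list genes past the fold, and the 3 genes most like each member, except for items that are not reported here. Steps were tested on simulated data. Gene positions are from GENCODE vM21 on GRCm38. Python 3.11.15 with numpy 2.4.6, scipy 1.17.1 and pandas 2.3.3 was used.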

Additional observations from a re-analysis of the deposited data

How the results depend on the processing

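Counts of called members were recomputed with a looser and a stricter assignment of nuclei, assignment by summed marker UMIs, median-of-ratios scaling, nuclei thinned to 2000 UMIs, without the deepest 10% of nuclei, with a mitochondrial share under 1%, a 2-fold limit and each library left out, and, chosen after seeing the data, with nuclei of low neuronal RNA and per nucleus. In astrocytes 5 members became 3 under the 2-fold limit and 3 under median-of-ratios scaling. In endothelial cells 7 became 3 under median-of-ratios scaling and 3 per nucleus, and in microglia 7 became 3 per nucleus. The share of all genes called was computed at the main setting only, so these changes in count cannot be set against it. In immature oligodendrocytes 1 became 3 per nucleus, 3 with low neuronal RNA, and 2 with the looser assignment, with thinning and without the deepest nuclei. With 1 library left out the counts were 7 in microglia, 5 in astrocytes, 6 to 7 in endothelial cells, 1 to 2 in immature (2 without library 4) and 5 to 6 in mature oligodendrocytes. The counts at all other settings stayed within 1.5 times, though in astrocytes the 6 called per nucleus were 1 higher and 5 lower. Among called members 8 log2 ratios to excitatory neurons changed sign, all per nucleus: Gramd1a -0.48, Lipa -0.0415 and Scarb2 -0.0702 in microglia, Lipa -0.40 and Npc1 -0.63 in astrocytes, and Gramd1c -0.46, Lamp2 -0.0225 and Scarb2 -0.38 in endothelial cells. This follows from the smaller number of UMIs per nucleus in these classes. Levels in CPM were recomputed as well. With the stricter assignment 25 were labelled as moved and 119 as the same, and with the looser assignment 17 and 127. Class ratios were taken within each library. No paired analysis was possible because the labels' replicate numbers could not be tied to libraries, which bars pairing of WT with Npc1-/- mice only. Depth limits border macrophages and choroid plexus most, where a member rested on as few as 34 UMIs.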

Other observations

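Libraries cannot be assigned to mice here, so the following are values of single libraries, in order of suffix 1 to 6, for genes and classes chosen after their values were seen. In microglia, Lamp2 had 102, 103, 116, 91.5, 157 and 168 CPM. In astrocytes it had 117, 115, 118, 122, 138 and 186 CPM, and in striatal projection neurons 41.9, 40.01, 43.3, 47.9, 42.5 and 44.5 CPM. In excitatory neurons, Npc2 had 12.5, 12.6, 13.7, 14.1, 8.55 and 6.87 CPM. Gramd1b in endothelial nuclei had 107, 116, 106, 143, 55.6 and 66.9 CPM. Libraries 5 and 6 held the fewest barcodes (10792 and 8217) and the fewest endothelial nuclei (287 and 198). Npc1 in excitatory neurons had 22.0, 21.1, 21.2, 18.5, 23.1 and 21.6 CPM.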
